A study of Mus musculus with 10 samples.

Results

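The subunits of the mitochondrial respiratory chain that are encoded in the nucleus were examined in each of 10 inspiratory neurons of the preBötzinger complex (preBötC), the brainstem site where the inspiratory rhythm originates. Members were chosen by symbol: Nduf genes of the a, b, c, s and v series for complex I, Sdha to Sdhd for complex II, Uqcr genes for complex III, Cox4 to Cox8 genes for complex IV and Atp5 genes for ATP synthase (complex V). Assembly factors of complex I, named Ndufaf, were left out. The rule found 89 of 55367 listed genes, with 41 in complex I, 4 in complex II, 8 in complex III, 19 in complex IV and 17 in complex V. Gene names did the choosing and no measured value did. The name Uqcr misses cytochrome c1 of complex III and takes in nothing from the mitochondrial genome. Ndufa4, kept here with complex I by its name, is now known to belong to complex IV.

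The respiratory chain sits in the inner mitochondrial membrane. Complexes I and II pass electrons from NADH and succinate to ubiquinone, complex III passes them on to cytochrome c, complex IV hands them to oxygen, and complex V uses the proton gradient that results to make ATP. Complexes I, III, IV and V are each built from many subunits encoded in the nucleus and a few encoded in mitochondrial DNA, whereas complex II is encoded wholly in the nucleus. Nerve cells depend heavily on this supply of ATP to restore their ion gradients.

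Each sample was the cytoplasm of 1 neuron drawn into a patch pipette from a slice of a neonatal mouse, sequenced as 1 library. The labels call sample 1 a Type-2 neuron (Dbx1-derived, P0). Type-1 neurons are sample 4 (wild type, P3), sample 5 (Dbx1-derived, P0), and samples 6 and 7 (Dbx1-derived, P3). The neurons named Unknown are samples 3 and 8 (wild type, P0), sample 10 (wild type, P1), and samples 2 and 9 (wild type, P2). Wild-type mice were CD-1. Dbx1-derived neurons came from Dbx1;Ai148 mice, in which Cre driven by the Dbx1 promoter switches on the calcium indicator GCaMP6f, so the reporter marks descent from Dbx1-expressing precursors and no particular neuron type. Type-1 cells have a long delay before the inspiratory burst and an A-current, Type-2 cells a short delay and an h-current, and Unknown cells could be placed in neither class. The labels name no animal and each library is 1 cell, so groups were not tested against each other and the text holds no p-values. Spread is the SD over neurons.

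The libraries held between 21392146 and 36629393 counted fragments, fewest in sample 1. Of 8 neuronal marker genes, 6 to 8 were at 1 FPKM or more in every neuron. FPKM is fragments per kilobase of gene length and per 1000000 counted fragments. The mean log2(FPKM + 1) of that list was 2.10 in sample 4 and between 4.51 and 7.58 in the other 9 neurons. In sample 4, the library labelled Type-1 from a CD-1 mouse, all 8 microglial markers passed 1 FPKM and took 1.84% of its counted fragments, with Tyrobp at 5567 FPKM, whereas Tubb3 stood at 1.07 and Snap25 at 3.63. In the other neurons the microglial list took at most 0.295% (sample 2). Astrocyte markers took 1.65% of sample 3, 1.12% of sample 4, 0.913% of sample 2 and 0.600% of sample 8, against at most 0.252% elsewhere. Only Apoe and Aldoc of these 10 astrocyte genes reached 1 FPKM in every neuron. Oligodendrocyte markers took at most 0.205% (sample 3). The study itself sets samples 1 to 4 apart by how their values are distributed, so results are also given without them. It reports that these 4 had the least concentrated cDNA, although all passed its limit.

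Nearly the whole chain was found in every neuron. Of 89 members, 69 were at 1 FPKM or more in all 10 neurons, and 78 were in at least 7. Both counts took in all 4 genes of complex II, all 8 of complex III and all 17 of complex V. In complex IV 11 of 19 genes passed in all 10 neurons, and the remaining 8 are alternative isoforms or copies. In complex I 38 of 41 passed in at least 7 neurons but only 29 in all 10, and sample 1 was the neuron that made the difference. Over all listed genes, 1290 reached 1 FPKM in all 10 neurons and 4939 in at least 7. No fragment was counted in any neuron for Cox6a2, Cox7b2, Cox8c, Ndufa4l2 and Ndufa11b, which allows at most 3 fragments a library, or 0.0819 to 0.140 CPM by depth, for counting error alone. Ndufa11b, Ndufs6b, Ndufb4c and Cox6c2 are annotated as processed pseudogenes.

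By neuron, the number of members at 1 FPKM or more was 70 in sample 1, 78 in sample 2, 80 in samples 6 and 10, and 79 in each of the other 6. Sample 1 therefore stood 8 genes below the next neuron, whereas the other 9 lay within 2 genes of each other. Members took 1.42, 2.93, 2.76, 2.10, 2.11, 2.30, 2.81, 1.96, 2.50 and 2.85% of counted fragments in samples 1 to 10, a mean of 2.37% ± 0.486 (SD, n = 10). Complex V took the largest part, 0.965%, followed by complex I with 0.647%, complex IV with 0.346%, complex III with 0.267% and complex II with 0.149% on average.

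**Figure D1:**
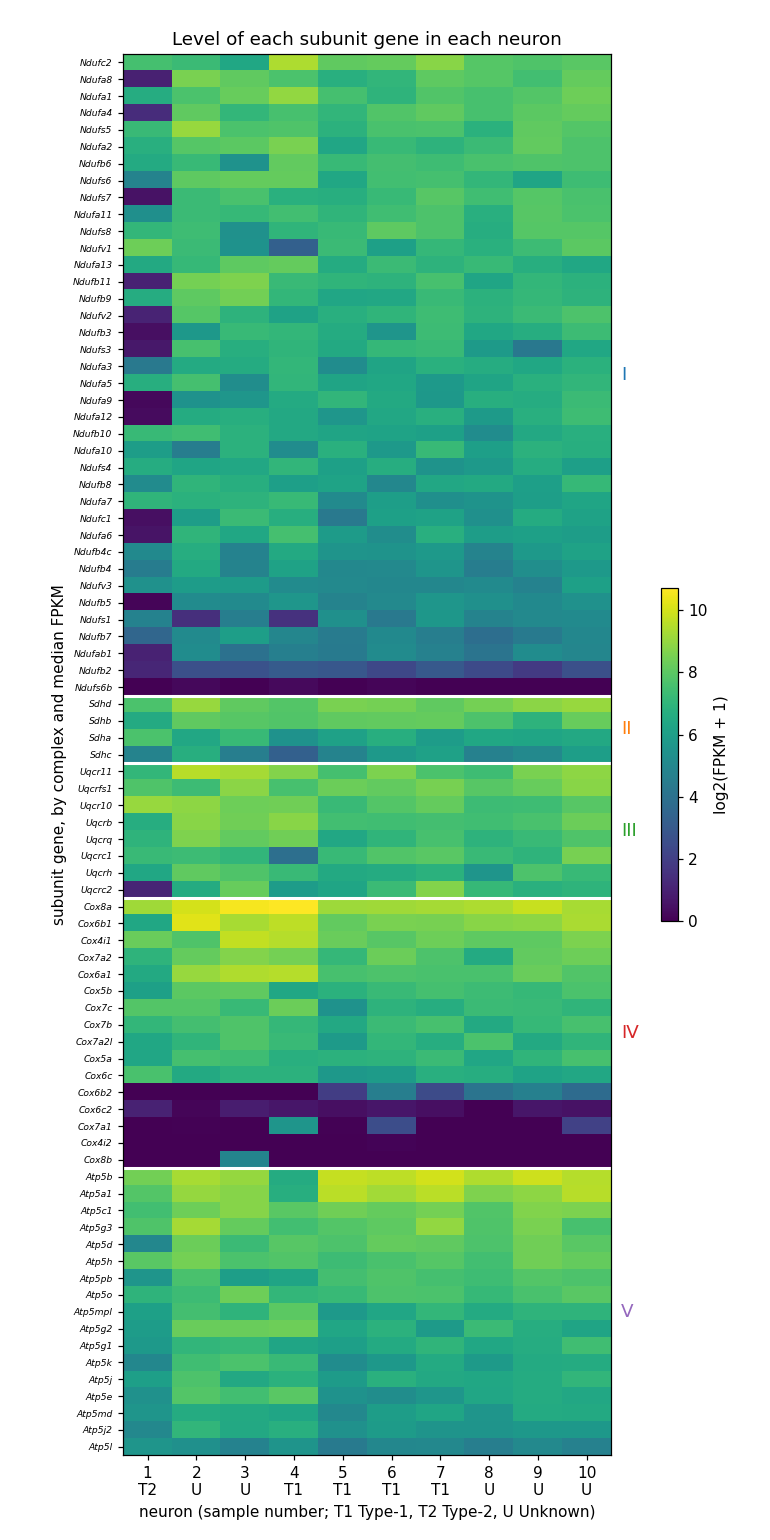
Each row is a subunit gene with a fragment in at least 1 neuron, ordered by complex and by its median FPKM, with 1 gene left out, each column is 1 neuron, and colour is log2(FPKM + 1). Rows are evenly coloured in most neurons, dark cells of complex I gather in sample 1, and the minor isoforms of complex IV form a dark band.

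Compared per gene length, subunits of complex III and IV were the most abundant and those of complex I the least. The median FPKM over the subunits of a complex, averaged over neurons, was 223 ± 72.1 for complex III, 191 ± 63.6 for complex IV, 163 ± 32.0 for complex II, 135 ± 44.6 for complex V and 99.1 ± 32.7 for complex I (SD, n = 10 neurons). Neighbours in this order differed by less than the larger of their 2 SDs. Complex I ran from 80.8 to 137 in samples 2 to 10 and stood at 26.4 in sample 1. Over the 78 members together the median was 73.1, 170.4, 151, 135, 92.8, 122, 155, 106, 126 and 163 FPKM in samples 1 to 10.

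**Figure D2:**
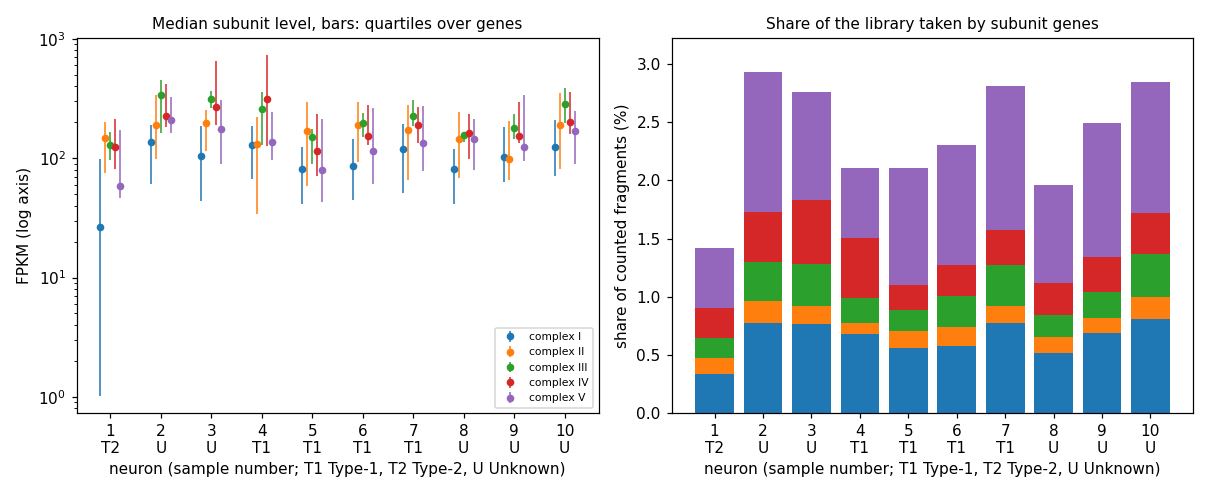
Left, the median FPKM of the subunits of each complex in each neuron on a log axis, with bars for the quartiles over genes. Right, the percentage of counted fragments taken by each complex, stacked, from 1.42% in sample 1 to 2.93% in sample 2.

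Levels of complex I were fairly even in samples 2 to 10 and split in sample 1. Its 7 nuclear core subunits carry the flavin and the iron-sulfur clusters along which electrons move from NADH to ubiquinone. Ndufv1 (chr19:4007384-4012806, minus strand; GENCODE M21 on GRCm38, as for all gene positions given), which binds NADH and the flavin, had 326, 159, 42.5, 8.87, 158, 67.9, 138, 110.2, 159 and 257 FPKM in samples 1 to 10. It was highest in sample 1 and lowest in sample 4. Ndufs1, the largest iron-sulfur subunit of the NADH-oxidizing (N) module, had 26.1, 1.70, 22.9, 1.91, 40.1, 19.1, 50.1, 26.6, 31.5 and 33.5 FPKM. Its values fell under 2 FPKM in samples 2 and 4 and exceeded 19 in every other neuron. Ndufv2, an iron-sulfur partner of Ndufv1, had 1.07, 234, 122, 70.6, 106, 129, 165, 121, 159 and 211 FPKM and was near absent in sample 1 alone.

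The ubiquinone-reducing (Q) module showed the same split. Ndufs7 (chr10:80249121-80256794, plus strand), which holds the last iron-sulfur cluster, had 0.435, 155, 198, 111, 104, 147, 243, 173, 233 and 199 FPKM. Ndufs3 had 0.622, 190.0, 103, 129, 89.3, 139, 151, 55.4, 18.7 and 81.9 FPKM. Both of these core genes had their lowest value in sample 1, under 1.1 FPKM. Ndufs8, another core subunit of this module, did not share the pattern, with 134, 164, 41.2, 129, 148, 266, 210.1, 102, 234 and 234 FPKM and its lowest value in sample 3. The median of the 8 Q-module genes was 0.847 FPKM in sample 1 and between 76.7 and 144 FPKM in the other 9 neurons.

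Accessory subunits of the membrane arm gave the highest levels of complex I. Ndufc2 averaged 280.2 ± 165 FPKM, Ndufa1 238 ± 114 and Ndufs5 223 ± 118 (SD, n = 10). Ndufc2 reached 663 FPKM in sample 4, the neuron with microglial markers, and 83.3 in sample 3. Whether those markers bear on the value was not tested. Of the genes with 1 FPKM in at least 5 neurons, Ndufs7 was among the most variable of the complex, with an SD of 2.21 on the log2(FPKM + 1) scale, and Ndufv3 and Ndufs4 varied least, with 0.46 and 0.47. Ndufab1 is the mitochondrial acyl carrier protein, which complex I holds as a subunit. It had 1.01, 35.7, 14.9, 23.4, 20.5, 34.7, 25.4, 16.3, 36.0 and 29.3 FPKM.

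Over its coding sequence, Ndufb4 could not be told apart from its copy. Ndufb4c, a processed pseudogene of 390 bases, is identical over its whole length to the coding sequence of Ndufb4. It begins with these 120 bases, shown because no base in them can assign a fragment to one gene or the other:
Ndufb4c: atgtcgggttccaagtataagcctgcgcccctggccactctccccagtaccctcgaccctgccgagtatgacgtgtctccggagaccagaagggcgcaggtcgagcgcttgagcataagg
The gene length of Ndufb4 is 1916 bases, so it also has bases outside the shared stretch. Summed over neurons it held 24896 fragments and Ndufb4c 6329. The 2 genes had like FPKM values, with Ndufb4c over Ndufb4 running from 0.954 to 1.49 by neuron. By summed fragments, Gm10221, which matches Atp5l over 309 bases at 100% identity, held 54.0% as many as Atp5l. Gm10039 held 16.9% as many as Atp5g1, Gm6969 16.8% as many as Cox7a2l and Atp5l2-ps 6.58% as many as Atp5l. Per length these short copies reached higher values, and their FPKM was up to 13.7, 5.17, 1.68 and 2.10 times that of the parent in a single neuron, in the same order. Levels of these 4 parents are therefore uncertain. The handling of fragments that match several places is not given in the sources used here.

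In sample 1 some complex I genes were near absent while others kept ordinary levels. A member was called low in a neuron when it stood under 2% of its median in the other 9, among the 77 members whose median there was at least 10 FPKM. This measure and its limit were chosen after the values were seen. In sample 1, 14 of 77 members (18.2%) were low, against 41.3% of all genes that met the same condition, so genes this low were not particular to the chain there. By name, the 14 were 13 of 37 genes of complex I and Uqcrc2 of complex III. No gene named for complexes II, IV or V was among them, but the 13 include Ndufa4, a subunit of complex IV. In samples 2 to 10 the count was 0 of 77 members each time, against 26.3, 29.5, 25.2, 2.05, 5.7, 6.42, 3.92, 13.9 and 2.95% of all genes in that order.

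The low genes were separated by a gap from the rest. They stood at 0.191 to 0.953% of their median in the other neurons, and the next member, Ndufab1, at 3.98%. The other 64 of the 78 genes had a median of 59.8%. By module, the low ones were 5 of 8 genes of the Q module (Ndufs3, Ndufs7, Ndufa6 and Ndufa9 among them), 2 of 8 of the N module (Ndufv2 and Ndufa12), 5 of the membrane arm (Ndufa8, Ndufb3, Ndufb5, Ndufb11 and Ndufc1) and Ndufa4. They were represented in sample 1 by 6 (Ndufb3) to 64 (Uqcrc2) fragments, which was 0.0156 to 0.0584% of the fragments of the same genes in the other 9 libraries together. Ndufa4 had 1.59, 274, 137, 193, 131, 223, 273, 191, 257 and 288 FPKM, and Ndufa8, a subunit of the membrane arm that faces the intermembrane space, had 0.977, 372, 269, 205, 106, 131, 268, 236, 174 and 290.2. For both genes sample 1 lay far below the other 9 neurons.

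How often genes in general were low in sample 1 depended on their level. Among genes with 10 to 100 FPKM in the other neurons, 45.4% of all genes and 5 of 27 members were low. Among those with 100 to 200 FPKM the figures were 18.2% and 7 of 28, and among those with 200 to 1000 FPKM 12.5% and 2 of 22. Members thus lay under the share of all genes at the lowest level and near it at the others, with few genes in each class. In complex I alone, 5 of 17 were low in the first class, 6 of 14 in the second and 2 of 6 in the third. These lay under the share of all genes in the first class and above it in the others, again with few genes in each. Other mitochondrial genes were low in sample 1 as well, with 4 of 11 genes for mitochondrial membrane transport, import and chaperones (Vdac2, Vdac3, Hspa9 and Hspd1), 3 of 11 of the citric acid cycle and 4 of 8 complex I assembly factors. Mitochondrially encoded mt-Nd4l stood at 0.787 FPKM there and between 7.27 and 932 FPKM elsewhere, the one low gene of 13. Sample 1 is also the shallowest library, one of the 4 with the least concentrated cDNA, and the only Type-2 neuron, so type and library cannot be told apart. Samples 5, 6 and 7, which are Dbx1-derived as well, had no low member.

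**Figure D3:**
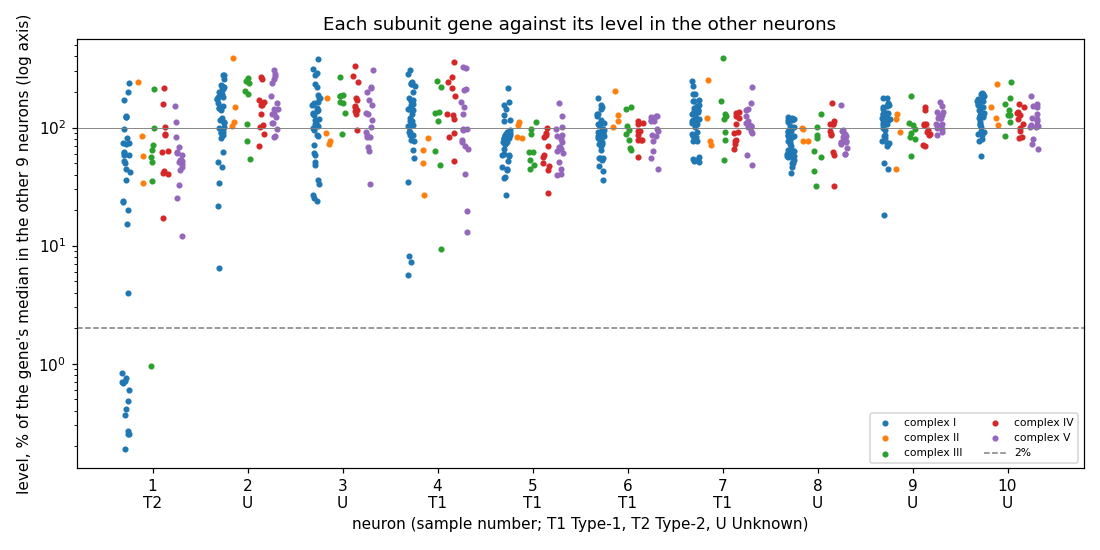
Each point is one of 78 subunit genes in 1 neuron, as a percentage of its median FPKM in the other 9 neurons on a log axis, coloured by complex. The dashed line at 2% has 14 points under it, all in sample 1, and 13 of them are complex I genes by name, Ndufa4 included.

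All 4 genes of complex II, the succinate dehydrogenase that also serves the citric acid cycle, were present in every neuron. Sdha, the flavoprotein, had 202, 84.1, 146, 42.5, 68.7, 105, 59.4, 82.4, 76.5 and 87.1 FPKM, highest in sample 1. Sdhb, the iron-sulfur subunit, had 91.7, 274, 245, 219.8, 270.4, 278, 292, 208, 120.5 and 295 FPKM. The membrane anchors differed from one another. Sdhd (chr9:50596357-50603812, minus strand) averaged 357 ± 116 FPKM and Sdhc 43.2 ± 28.7 (SD, n = 10), and Sdhd exceeded Sdhc in 10 of 10 neurons. Sdhc was lowest in sample 4, at 8.64 FPKM. Sdhd varied least on the log2 scale, with an SD of 0.47, and Sdhc most, with 0.99.

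In complex III the small subunits Uqcr11 and Uqcr10 and the Rieske iron-sulfur protein Uqcrfs1 led, with means of 372 ± 206, 289.8 ± 128 and 298 ± 103 FPKM (SD, n = 10). The core proteins Uqcrc1 and Uqcrc2 were unlike them. Uqcrc1 had 150.1, 162, 132, 14.2, 146, 225, 249.7, 151, 125 and 365 FPKM and was lowest in sample 4. Uqcrc2 (chr7:120635176-120659524, plus strand) had 1.17, 95.2, 294, 59.0, 76.5, 158, 423, 144, 110.1 and 123 FPKM and was lowest in sample 1, so that each core gene had 1 neuron far below the rest, and not the same one. Uqcrfs1 varied least (SD 0.50 on the log2 scale), followed by Uqcr10 (0.63).

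Cox8a had the highest mean FPKM of all members, although Atp5b exceeded it in samples 5 to 10. It had 577, 1035, 1523, 1672, 555, 585, 617, 671, 887 and 628 FPKM in samples 1 to 10, a mean of 875 ± 412. Cox6b1 (chr7:30616861-30626151, minus strand), on the face of complex IV that meets cytochrome c, had 81.3, 1185, 625, 807, 278, 370.1, 367, 441, 475 and 660.4 FPKM, a 14.6-fold range with its lowest value in sample 1. Cox4i1, which holds a regulatory site for ATP, had 309, 213, 834, 730.1, 303, 240.3, 324, 265, 265 and 387 FPKM. Samples 3 and 4 were the highest for Cox4i1 and for Cox8a. Cox7b and Cox5a were the steadiest of the complex, with SDs of 0.44 and 0.45 on the log2 scale.

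Several complex IV subunits have a general isoform and a second one known from muscle, testis, lung or other tissues. The general form led in every family. Cox4i1, Cox6a1, Cox7b and Ndufa4 took 100% of their family's summed FPKM in every neuron, apart from 0.0335% for Cox4i2, known from lung, in sample 6. Cox6b2, known mainly from testis, was at 0 in samples 1 to 4 and had 2.86, 22.6, 4.39, 16.2, 24.6 and 12.3 FPKM in samples 5 to 10, at most 5.75% of its family. Cox7a1, the heart and skeletal muscle form, reached 46.9 FPKM in sample 4, with 4.81 in sample 6, 3.18 in sample 10 and at most 0.0516 elsewhere. Cox8b, another muscle form, had 27.6 FPKM in sample 3 and no fragment in any other neuron. Muscle or testis markers were not examined. Cox7a2l, a factor for the assembly of supercomplexes that resembles subunit Cox7a2, made up 24.4 to 39.8% of its family in 9 neurons and 68.8% in sample 8, where Cox7a2 was at its lowest, 93.4 FPKM.

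The sequences before the starts of the general and the testis isoform of subunit 6b are shown because the levels of these genes lay so far apart. They are the 250 bases before the start in RefSeq on GRCm38.p6, both on the minus strand, with capitals for a match to CCGGAAG, the core bound by ETS factors, on either strand, or to the palindromic core of NRF1, with any base at its middle position. Ndufa8, one of the genes low in sample 1, is added as an example with an NRF1 match. These genes were chosen after their values were seen. No match stood in the same 250 bases of Cox8a, Cox8b, Cox7a1, Cox7a2, Atp5b, Ndufc2, Ndufa4, Ndufs7 or Ndufa12. The isoform pairs Cox8a and Cox8b, and Cox7a2 and Cox7a1, thus showed no such difference in these 250 bases. In the window that runs on to 50 bases after the start, Cox8a held an ETS match and Cox8b did not. Cox7a1 and Cox7a2 had no match in that window either.
Cox6b1 chr7:30626115-30626364: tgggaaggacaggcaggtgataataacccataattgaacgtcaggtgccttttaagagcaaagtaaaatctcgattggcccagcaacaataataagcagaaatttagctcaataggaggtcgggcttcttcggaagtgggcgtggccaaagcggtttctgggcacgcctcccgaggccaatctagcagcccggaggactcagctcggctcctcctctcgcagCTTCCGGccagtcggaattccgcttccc
Cox6b2 chr7:4753095-4753344: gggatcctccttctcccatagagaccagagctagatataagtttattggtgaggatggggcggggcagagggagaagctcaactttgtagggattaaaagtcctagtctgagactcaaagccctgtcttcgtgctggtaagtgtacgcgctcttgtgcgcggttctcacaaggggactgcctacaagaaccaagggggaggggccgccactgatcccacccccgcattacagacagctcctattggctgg
Ndufa8 chr2:36049339-36049588: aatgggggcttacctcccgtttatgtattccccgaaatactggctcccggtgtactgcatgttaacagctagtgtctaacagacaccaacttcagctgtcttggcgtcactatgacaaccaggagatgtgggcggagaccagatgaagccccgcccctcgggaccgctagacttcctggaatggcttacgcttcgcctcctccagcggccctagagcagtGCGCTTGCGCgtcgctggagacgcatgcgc
NRF1 and the ETS factor GABP are known to drive many genes of the chain. Of the 69 members with a promoter in the table, 17 (24.6%) held the NRF1 core in a window from 250 bases before the start to 50 after it, against 5.19% of 27025 promoters and 15.2% of the 3531 genes that reached 1 FPKM in 7 or more neurons. The ETS core was in 17 members (24.6%), against 9.93% of all promoters and 24.2% of those of the detected genes. The share of members with the NRF1 core stood above both backgrounds and that with the ETS core near the detected genes. By complex, the NRF1 core was in 7 of 33 promoters of complex I, 2 of 3 of II and 1 of 5 of III. It was in 6 of 15 of complex V but only 1 of 13 (7.69%) of complex IV. A match is only a run of letters, and binding was not measured.

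**Figure D4:**
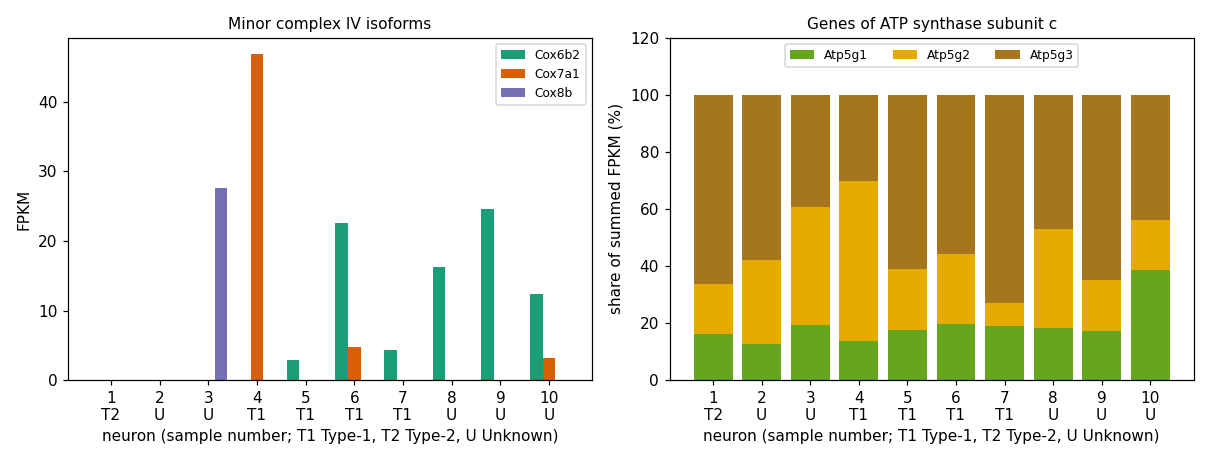
Left, FPKM of 3 minor isoforms of complex IV subunits in each neuron, with Cox6b2 only in samples 5 to 10, Cox8b only in sample 3 and most of Cox7a1 in sample 4. Right, the share of Atp5g1, Atp5g2 and Atp5g3 in the summed FPKM of ATP synthase subunit c genes, with Atp5g3 largest in 8 of 10 neurons.

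All 17 genes of complex V passed 1 FPKM in every neuron. The catalytic head (F1) was led by its beta and alpha subunits, which form the nucleotide sites. Atp5b (chr10:128083273-128090391, plus strand) had 341, 626, 509, 96.5, 865, 793, 992, 697, 939 and 739.6 FPKM and Atp5a1 had 228, 523, 435, 103, 773, 602, 776, 402, 477 and 749 FPKM. Both were lowest in sample 4, at 96.5 and 103 FPKM. The gamma subunit of the rotor, Atp5c1, was steadier, with 174, 324, 429, 248, 331, 285, 349.9, 220.3, 413 and 388 FPKM. The small subunits of the central stalk varied more. Atp5d, the delta subunit, had 29.7, 313, 157, 242, 213, 291, 276, 211, 329 and 248 FPKM and was lowest in sample 1. Atp5e, the epsilon subunit, had 41.5, 226, 175, 251, 42.7, 37.4, 49.1, 79.4, 95.3 and 83.8 FPKM, with samples 2 to 4 above the rest. In the membrane part and the outer stalk, Atp5h and Atp5l varied least, with SDs of 0.38 and 0.40 on the log2 scale. Atp5e and Atp5d varied most within the complex, with 1.02 and 1.01.

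Subunit c, which forms the rotor ring in the membrane, is encoded by 3 genes that differ in their targeting peptide. Their longest reading frames were 136 (Atp5g1), 190 (Atp5g2) and 141 residues (Atp5g3), and the last 78 residues were identical. The 234 bases that encode them are shown to let a reader see how reads could tell these genes apart. Capitals mark the 63 positions that vary among them:
Atp5g1: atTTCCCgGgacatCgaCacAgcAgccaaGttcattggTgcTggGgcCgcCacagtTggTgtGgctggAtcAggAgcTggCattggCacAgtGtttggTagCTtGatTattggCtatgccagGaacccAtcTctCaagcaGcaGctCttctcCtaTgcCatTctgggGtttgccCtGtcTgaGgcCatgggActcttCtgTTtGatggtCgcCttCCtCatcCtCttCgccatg
Atp5g2: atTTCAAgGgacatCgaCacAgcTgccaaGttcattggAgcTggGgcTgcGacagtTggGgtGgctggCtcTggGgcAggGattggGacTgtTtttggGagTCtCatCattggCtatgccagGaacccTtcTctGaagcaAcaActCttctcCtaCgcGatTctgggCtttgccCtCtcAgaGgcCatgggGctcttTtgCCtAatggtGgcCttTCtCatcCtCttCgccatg
Atp5g3: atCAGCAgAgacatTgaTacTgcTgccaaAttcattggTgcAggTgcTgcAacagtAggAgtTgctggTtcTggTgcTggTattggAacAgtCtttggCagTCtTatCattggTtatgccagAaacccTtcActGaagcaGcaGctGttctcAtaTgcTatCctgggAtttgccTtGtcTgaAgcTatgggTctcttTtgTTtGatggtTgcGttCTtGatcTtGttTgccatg
In this stretch Atp5g1 and Atp5g2 shared 84.6% of bases, Atp5g1 and Atp5g3 78.6%, and Atp5g2 and Atp5g3 77.4%. Atp5g3 made up 54.0% ± 13.4, Atp5g2 26.9% ± 14.1 and Atp5g1 19.2% ± 7.24 of the summed FPKM (SD, n = 10). By fragments, not corrected for length, the shares were 46.0% for Atp5g3, 36.0% for Atp5g1 and 18.1% for Atp5g2, so the order of the last pair depends on the length used. By FPKM, Atp5g2 led in samples 3 and 4, with 41.4 and 56.2%, and fell to 8.15% in sample 7. Atp5g1 took 38.7% in sample 10 and at most 19.5% in the other neurons.

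Levels of members differed less between neurons than those of most genes. The SD of log2(FPKM + 1) over 10 neurons had a median of 0.731 over 78 members and 1.71 over the 4939 genes that reached 1 FPKM in 7 or more neurons. Without sample 1 the medians were 0.642 and 1.54, and without samples 1 to 4 they were 0.457 and 0.865. The gap was wider at lower levels. At 10 to 50 FPKM the medians were 0.700 for 9 members and 1.90 for 2297 genes, and at 50 to 100 FPKM 0.755 for 21 members and 1.79 for 559 genes. At 100 to 200 FPKM the medians were 0.761 for 26 members and 1.20 for 282 genes, and at 200 to 1000 FPKM 0.665 for 21 members and 1.14 for 179 genes. Without samples 1 to 4 these 4 classes gave 0.437 against 0.886, 0.534 against 0.657, 0.486 against 0.538 and 0.403 against 0.496. By complex, the median SD was 0.829 for I, 0.740 for III, 0.655 for IV, 0.647 for V and 0.602 for II. Without sample 1 that of complex I was 0.657.

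Short genes stood higher in samples 2 to 4. The median deviation of the 18 members of at most 1000 bases from each gene's own median over neurons, minus that of the 19 members of at least 3000 bases, was 0.68, 0.52 and 1.02 on the log2 scale in samples 2, 3 and 4. It lay between -0.42 and 0.07 in the other 7 neurons. For all genes that reached 1 FPKM in 7 or more neurons the same difference was 1.05, 1.09 and 2.46 in samples 2 to 4 and -0.47 to 0.13 elsewhere. This comparison was added after the values were seen. Whether gene length has a part in the levels of single members such as Ndufs1 and Atp5e was not tested.

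Few members differed by 2-fold between Type-1 and Unknown neurons. The difference in mean log2(FPKM + 1) between 4 Type-1 and 5 Unknown neurons had a median of -0.23 over the 80 members with 1 FPKM in at least 3 neurons, and of 0.17 over the 10420 genes tested so. Cox7a1 (1.62) and Ndufc2 (1.16) were higher in Type-1 neurons by at least 2-fold, as were 21.6% of all genes. Ndufv1 (-1.02) was lower, as were 11.9% of all genes. None of the 3 passed 2-fold without sample 4: no member was then higher by 2-fold, and 2 others, Atp5e and Atp5g2, were lower. The median was then -0.28 over members and 0.43 over all genes. Ndufc2 was the 1 member whose groups did not overlap, with 271 to 663 FPKM in Type-1 and 83.3 to 252 in Unknown neurons, against 1.28% of all genes. Its highest value was that of sample 4, and samples 5, 6 and 7 had 271, 292 and 450 FPKM. Next in size were Ndufs3 (0.82), Atp5e (-0.84) and Ndufb8 (-0.78). Cell type markers moved here as well. Of 8 astrocyte genes tested, 7 were lower in Type-1 neurons, with a median of -2.06. Of 8 neuronal genes, 4 were lower and 1 higher, with a median of -1.01, and of 7 microglial genes 1 was lower. Their part in the members' differences was not tested.

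In FPKM, members were lower in Dbx1-derived than in CD-1 neurons, and leaving out sample 1 raised the medians of members and of all genes alike. The median over members was -0.54 between 4 Dbx1-derived and 6 CD-1 neurons and 0.26 over all genes. Of 80 members, 19 were lower by at least 2-fold, 13 of them in complex I, against 17.1% of all genes. Only Ndufs1 (1.28) was higher, against 28.7%. Markers of other cells moved with this comparison: 7 of 7 microglial genes tested were lower, with a median of -3.59, and 7 of 8 astrocyte genes, with a median of -1.73. Their part in the members' differences was not tested. Without sample 1 the median was -0.29 over members and 0.53 over all genes, with 2 members higher and 5 lower. Without samples 1 to 4 it was -0.17 over members and 0.11 over all genes, with 1 member higher and 1 lower. In that setting the same neurons are compared as for Type-1 against Unknown, so both comparisons give the same values. The shares of all genes given above hold for the full set of neurons only. The lowest differences were those of Ndufa8 (-2.26), Ndufc1 (-2.10) and Ndufa6 (-1.89), all low in sample 1. Ndufv1 (0.86) and Uqcrc1 (0.71) followed Ndufs1 among the highest. In TPM, which scales each library to the sum of its length-corrected values, the median was -0.02 over members and 0.68 over all genes, with 5 members higher and 12 lower.

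The groups of the 2 lines did not overlap for 4 members, Cox6b1, Cox8a, Atp5e and Ndufa2, against 2.52% of all genes. Cox8a had 555 to 617 FPKM in Dbx1-derived and 628 to 1672 in CD-1 neurons, so the edges of the groups nearly met. Cox6b1 had 81.3 to 370 FPKM against 441 to 1185. Atp5e had 37.4 to 49.1 FPKM against 79.4 to 251. Ndufa2 had 80.4 to 146 FPKM against 158 to 378. All 4 genes were thus lower in each Dbx1-derived neuron, sample 1 or not. Cox6b1 (708 bases), Cox8a (619) and Ndufa2 (572) are short genes, and Atp5e has 1756 bases. Samples 2 to 4, in which short genes stood higher, are all CD-1. Whether gene length has a part in these differences was not tested. Line and neuron type overlap in these cells, since 5 of 6 CD-1 neurons are Unknown and no Dbx1-derived neuron is, so line and type cannot be told apart.

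Between P0 (4 neurons) and P2 to P3 (5 neurons), the median difference was -0.60 over members and -0.02 over all genes. Here too 19 members were lower at P0 by at least 2-fold, 15 of them in complex I, against 17.3% of all genes, and Ndufs1 alone (1.27) was higher, against 18.4%. Of astrocyte markers, 6 of 8 were higher at P0, with a median of 1.65, as were 2 of 3 oligodendrocyte markers tested, with a median of 1.11, and their part was not tested. Without sample 1 the median was -0.31 over members and 0.16 over all genes, with 2 members higher and 3 lower. Without samples 1 to 4 it was -0.37 over members and 0.20 over all genes, with 0 members higher and 2 lower. Without sample 3 the number of members lower was 30, and the median over all genes was 0.10. The shares of all genes hold for the full set of neurons only. The lowest were Ndufa4 (-2.15), Ndufa12 (-1.97) and Ndufc1 (-1.96), and Ndufv1 (0.74) and Sdha (0.69) followed Ndufs1. For 6 members the ages did not overlap, Ndufa4, Ndufa11, Ndufab1, Ndufb4, Atp5d and Atp5j, against 0.988% of all genes. Of these, Ndufb4 shares its coding sequence with Ndufb4c. Ndufa11 had 39.4 to 142 FPKM at P0 and 157 to 245 at P2 to P3. Atp5j had 57.4 to 86.7 FPKM at P0 and 88.3 to 210.1 at P2 to P3. The P1 neuron, sample 10, had 206 FPKM of Ndufa11 and 132 of Atp5j. The comparisons of type, line and age use the same neurons and are not independent of one another.

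The share of the 13 subunits encoded in mitochondrial DNA ranged more widely than that of the nuclear ones. They took 1.06, 6.67, 7.19, 8.76, 0.225, 0.210, 1.13, 4.58, 7.06 and 0.332% of counted fragments in samples 1 to 10. The ratio of their share to that of the nuclear members ran from 0.0914 in sample 6 to 4.17 in sample 4. Across the 10 neurons the 2 shares had a Pearson r of 0.176 and a Spearman rho of 0.0545, and without samples 1 and 2, the farthest in nuclear share, -0.169 and -0.167. Both shares are parts of the same library total. All 13 genes were lower by at least 2-fold in Type-1 than in Unknown and in Dbx1-derived than in CD-1 neurons, with median differences of -2.14 and -3.10, against 11.9% and 17.1% of all genes lower. At P0 against P2 to P3 the median was -0.60 and 1 of 13 was lower. Among CD-1 neurons, sample 10 had a share as low as the Dbx1-derived ones.

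**Figure D5:**
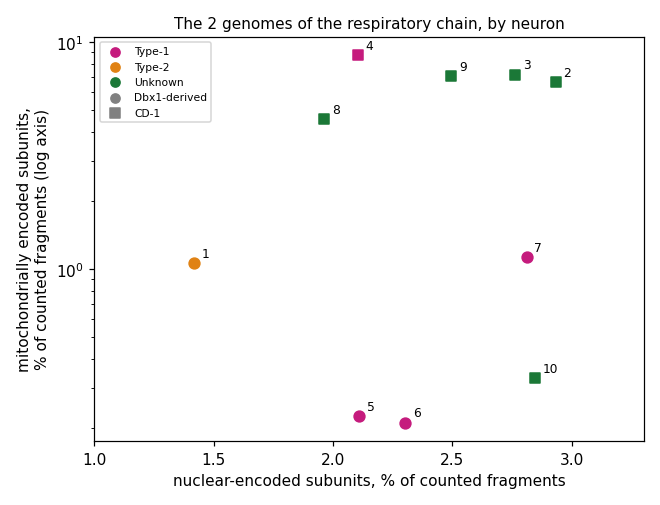
Each point is 1 neuron, numbered, with the percentage of counted fragments from nuclear-encoded subunits on the horizontal axis and from the 13 mitochondrially encoded subunits on the vertical log axis. Nuclear shares lie between 1.42 and 2.93%, while mitochondrial shares run from 0.210 to 8.76%.

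Genes that work with the chain were found less evenly. Both cytochrome c1 (Cyc1) and cytochrome c (Cycs) passed 1 FPKM in all 10 neurons, with Cyc1 at 324, 320.5, 153, 52.6, 244, 153, 363, 226, 128 and 341 FPKM. Of 11 genes for mitochondrial membrane transport, import and chaperones, 7 passed in all 10, led by the ADP/ATP carrier Slc25a4 with a mean of 683 ± 382 FPKM, and of 12 citric acid cycle genes 5 did, led by Mdh2 with 260.5 ± 148 (SD, n = 10). Assembly factors were more often missed. Only 1 of 14 for complex I and 1 of 28 for complexes II to V passed in all 10 neurons. None of 11 transcriptional regulators of the chain did, and the highest of them, Ppargc1a, had 22.1 ± 22.0 FPKM. In the comparison of Dbx1-derived with CD-1 neurons, 28.7% of all genes were higher and 17.1% lower by 2-fold. Beside that, 7 of 14 complex I assembly factors were higher and 3 lower, 8 and 4 of 24 for complexes II to V, 6 and 2 of 12 for the citric acid cycle, 0 and 3 of 11 for transport, import and chaperones and 0 and 0 of 8 regulators. At P0 against P2 to P3 (18.4% and 17.3% of all genes) the same lists had 1 higher and 4 lower, 4 and 3, 3 and 3, 0 and 3, and 1 and 1. Between Type-1 and Unknown neurons (21.6% and 11.9%) they had 5 and 2, 8 and 4, 3 and 0, 0 and 0, and 2 and 0.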

How the data were processed

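RNA of 10 single preBötC neurons was sequenced with 1 library per neuron. The authors trimmed reads, aligned them with STAR 2.7.7a to the GRCm38 genome, assigned fragments to Ensembl gene models with featureCounts, and deposited raw counts, gene lengths and FPKM. The deposited FPKM equals counts per kilobase and per 1000000 counted fragments, with a largest relative difference of 3.33e-13 on recomputing.

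FPKM was used as deposited, on the scale log2(FPKM + 1) for differences and spread, which understates changes of low genes. TPM and size factors were computed from the counts. Copies were found with BLAST 2.17.0 (at least 98% identity over at least 150 bases). Tables were handled with pandas 2.3.3 and NumPy 2.4.6 in Python 3.11.15, correlations with SciPy 1.17.1 and figures with Matplotlib 3.10.9.

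Members, gene lists and named genes (per complex the highest, the most and the least variable; isoform families; core genes; members found in all or in no neurons; the extremes of each comparison) were chosen with earlier results of these data known. GENCODE M21 holds 87 of the 89 symbols, and the RefSeq promoter table (GRCm38.p6) 69. Figure legends and labels differ on which samples are Dbx1-derived. The labels were followed. Reads carry no molecular identifiers, so limits cover counting error only. Alternatives tried were other pseudocounts, filters, units, scalings, thinned libraries and left-out neurons. The values of 1 member, which is counted in the totals, are not reported here.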

Additional observations from a re-analysis of the deposited data

Results flagged for a closer look

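For 143 sets of values, the highest or lowest neuron was compared with its nearest neighbour by Dixon's criterion, and 37 stood apart. The criterion's rate of about 1 in 20 holds for independent, normally distributed values. Many of these sets are counts, shares with zeros or genes that vary together, so the 37 cannot be set against that rate. An isoform with fragments in 1 neuron was bound to be flagged. Of these, 19 were sample 1 against the other 9 neurons.

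In sample 1, the number of members at 1 FPKM or more (70) and of complex I genes (29) and the median of complex I (26.4 FPKM) were the lowest. On the log2(FPKM + 1) scale, single genes that stood apart there were Ndufa12 (0.31), Ndufa4 (1.37), Ndufa6 (0.55), Ndufa8 (0.98), Ndufa9 (0.24), Ndufa11 (5.34), Ndufab1 (1.01), Ndufb11 (1.02), Ndufb3 (0.45), Ndufb5 (0.13), Ndufc1 (0.43), Ndufs3 (0.70), Ndufs7 (0.52), Ndufv2 (1.05), Uqcrc2 (1.12) and Atp5d (4.94). Sample 4 was lowest for Atp5b (6.61) and Uqcrc1 (3.93), and sample 3 for Ndufs8 (5.40).

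Among isoforms, Cox7a1 took 8.51% of its family in sample 4, apart from all neurons and from the other Type-1 neurons, and 0.695% in sample 10, apart from the other Unknown neurons. Cox7a2l took 68.8% of its family in sample 8, Cox8b 1.78% in sample 3 and Atp5g1 38.7% in sample 10, each apart from all neurons and from its own type. Cox4i2 took 0.0335% in sample 6, the one neuron with fragments of it.

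Counts of genes at 1 FPKM or more were flagged for differences of 1 gene. They were 80 members (against 79 in the other Type-1 neurons) and 13 complex IV genes (against 12) in sample 6, and 11 complex IV genes in sample 2 (12 in the next neuron). The share of mitochondrially encoded subunits was 8.76% in sample 4 and at most 1.13% in the other Type-1 neurons.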

How the results depend on the processing

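Of 190 values recomputed under another setting, 156 moved by less than the limits used. Of the others only the correlation below and the length difference of sample 1 changed sign. The limit was a fixed ratio for counts and an SD over neurons or genes for other values. These limits are wide: the P0 median of -0.60 against -0.31 without sample 1 fell within its limit of 0.36. Some values, such as the number of complex II genes found, could hardly move, so the 156 is no measure of stability. In TPM the median member level, averaged over neurons, was 309 in place of 129.5. For Type-1 against Unknown neurons, members higher by 2-fold numbered 1 by median-of-ratios scaling, 1 without samples 1 to 4 and 0 to 3 with each neuron left out, and those lower 0 in TPM, 2 by median-of-ratios scaling and 0 to 3 with each neuron left out. For Dbx1-derived against CD-1 neurons the median difference was -0.0235 in TPM, members higher numbered 5 in TPM and 0 to 3 with each neuron left out, and those lower 12 in TPM, 28 by median-of-ratios scaling, 1 without samples 1 to 4 and 5 to 28 with each neuron left out. The median of all genes in that comparison was 0.26, but 0.68 in TPM and 0.10 by median-of-ratios scaling, and members lay below it under each. For P0 against P2 to P3, members higher numbered 2 with no filter, 0 without samples 1 to 4 and 0 to 2 with each neuron left out, and those lower 2 without samples 1 to 4 and 3 to 30 with each neuron left out. Among single neurons left out, sample 1 gave the fewest lower members in both of the last comparisons. Shares of all genes past 2-fold were computed in the main setting only, so these counts have no share of all genes beside them. The correlation of nuclear and mitochondrial shares was -0.17 without samples 1 and 2. With the length of the longest coding transcript in place of the gene length, short minus long members in sample 1 came to 0.08, from -0.42. Why these values moved was not tested beyond the samples left out.

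The count of 14 low members in sample 1 was the same at a limit of 1% and was 15 at 5%. No paired analysis was possible because replicate numbers only name the neurons and no result comes from a test. Each group is a handful of single cells of unnamed animals, so differences between groups cannot be told apart from differences between cells.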
